A study of Sus scrofa with 26 samples.

Results

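The genes described here are those of respiratory complex I, the NADH dehydrogenase of the mitochondrial inner membrane, together with the assembly factors that share its gene symbol prefix. They were chosen as every array probe whose gene symbol, accession or description led to a symbol beginning with NDUF. The rule found 91 of the 60305 probes on the array, for 40 genes. Of these, 86 probes for 39 genes were well above background on at least 8 arrays and were tested among 44703 probes. The exception among the genes was NDUFAF1, an assembly factor of the membrane part, whose only probe did not reach that level. No probe was found by the rule for the core subunit NDUFS7, for the accessory subunits NDUFA5 and NDUFB10, or for the assembly factors NDUFAF2, NDUFAF5, NDUFAF7 and NDUFAF8, which are not analysed here.

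Subcutaneous adipose tissue (SCAT, the backfat) came from 26 castrated male pigs, with 1 pig per 1-colour array. Creole pigs are a Caribbean breed, Large White (LW) is a commercial breed, and F1 is the cross of LW and Creole. Thermoneutral pigs (TN, 24 °C) numbered 3 for Creole, 4 for F1 and 4 for LW, and each of these breeds had 5 heat-stressed pigs (HS). HS is 30 °C in the sample labels and 32 °C, lasting 5 days, in the series description. TN pigs were slaughtered before the temperature rose and HS pigs after it, so temperature, slaughter day and age cannot be told apart. The study arranged its pigs in blocks of littermates within a breed, but the labels name no litter, pen, father or mother, and p-values measure the spread between pigs as sampled.

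Complex I takes electrons from NADH, passes them along a chain of iron-sulfur clusters to ubiquinone, and pumps protons across the inner membrane. Its core subunits carry out this chemistry, partly encoded in the nucleus and partly in mitochondrial DNA, and a large set of accessory subunits surrounds them in a matrix arm and a membrane arm. White adipocytes hold comparatively few mitochondria, which support fat synthesis and fatty acid handling as well as ATP production.

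Quantile-normalised log2 intensity is the unit of every level below, and a difference is a difference in log2 intensity. Adipocyte genes were bright, with mean levels of 18.35 for FABP4, a fatty acid carrier, and 17.41 for ADIPOQ, the adipokine adiponectin. From 41314 to 46185 probes per array were well above background. Skeletal muscle genes were also present on the arrays and varied widely, and the mean centred level of 11 of 12 listed muscle markers ran from -2.46 to 1.16 in TN and from -1.45 to 2.85 in HS. In such bulk tissue, fewer cells of a type and less RNA per cell cannot be told apart.

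The array reads many members with several 60-base probes, and the findings below turn on whether these agree. A few sequences are therefore shown as deposited, 5′ to 3′. The files give no genome position for them, and no genome was used here. For NDUFV2, an iron-sulfur core subunit, the probes shown share no run longer than 14 bases, so that they read different stretches of the transcript. Capitals mark the 14 bases shared by probes a and b, and in probe d AATAAA, the letters of the polyadenylation hexamer, which probe b also holds, in lower case here. For probe d, 30 bases are shown.
NDUFV2 probe a: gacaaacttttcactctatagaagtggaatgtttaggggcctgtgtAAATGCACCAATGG
NDUFV2 probe b: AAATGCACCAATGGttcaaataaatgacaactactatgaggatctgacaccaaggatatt
NDUFV2 probe c: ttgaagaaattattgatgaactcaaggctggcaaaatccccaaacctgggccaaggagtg
NDUFV2 probe d: gctgtaaatatgtcactggagaAATAAAgt

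NDUFV1, the flavin-binding subunit that oxidises NADH, had a single probe, shown whole. NDUFB5, an accessory subunit of the distal membrane arm, and NDUFA4 had probes that moved in opposite directions between breeds. For these genes, probe a was named by the symbol and probe b only by a free-text description of an expressed-sequence cluster. Of probe b, the last 30 bases are shown for NDUFB5 and the first 30 for NDUFA4. In NDUFA4 probe a, of which the first 30 bases are shown, capitals mark the first 20 of the 47 bases that it shares with a further probe of the gene, a run that goes on beyond the stretch shown.
NDUFV1 probe: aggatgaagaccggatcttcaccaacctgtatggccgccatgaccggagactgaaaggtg
NDUFB5 probe a: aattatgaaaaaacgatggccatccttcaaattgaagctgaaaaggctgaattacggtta
NDUFB5 probe b: gctgcaggcatggctctaaaaagcaaaaaa
NDUFA4 probe a: AATGAAGGTCTTCCAGAAGCcatccgcaca
NDUFA4 probe b: ccttaaaagcaccattctactttctgcttt

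AATAAA occurred as deposited in 14 of the 91 member probes (15.4%) and in 10.3% of all 60305 probes. On the other strand it occurred in 3 member probes and in 4.32% of all probes. Within genes, 31 pairs of member probes shared a run of at least 14 bases, in 12 genes, and NDUFV2 carried the same sequence (probe c) in 2 of its 6 probes. The 91 probes thus formed 69 sets without such a shared run, and overlapping probes read the same stretch of RNA.

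Some of the complex I genes were lower in HS than in TN. With the brightest tested probe of each gene, 8 of 39 genes fell and 0 rose at an adjusted p-value under 0.05, and 34 of 39 had a lower estimate. With a red blood cell marker score as a covariate, described further on, 0 of 39 passed, against 1.24% of all named genes, and the complex I median was -0.06. Over all 10126 named genes tested, 12.5% passed the threshold, 7.65% by falling and 4.87% by rising, against 20.5% of the complex I genes. The median difference was -0.13 over the complex I genes and -0.00 over all named genes, and single differences ran from -0.37 to 0.20. Among all member probes, 29 of 86 fell and 0 rose, compared with 12.2% of all tested probes called, 7.02% lower and 5.16% higher. The 29 came from 13 genes, 7 of them from NDUFA4 and 6 from NDUFV2. Some of these overlap in sequence, so the probe count is not one of independent members.

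With another scaling, on the 75th percentile of the processed signal, 15 of the 39 genes fell and 1 rose, against 14.7% of all named genes called, the median was -0.21, and the share of falls among the calls for all named genes went from 61.1% to 72.4%. The single rise was NDUFB4, a distal membrane-arm subunit read only by a dim probe that was named by its description.

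**Figure D1:**
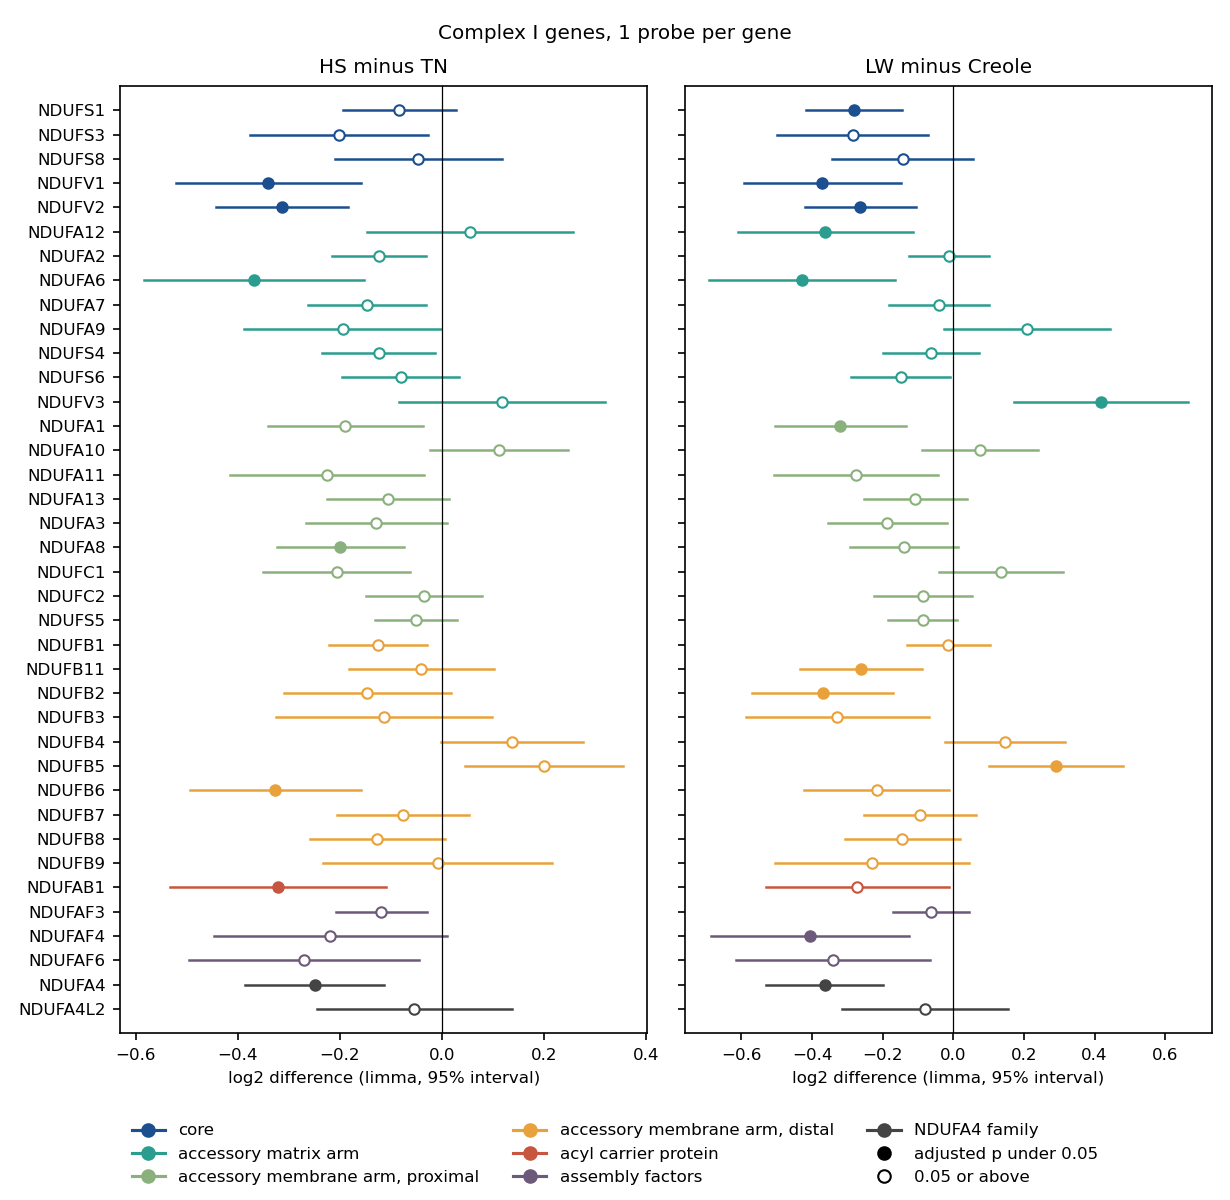
Difference in log2 intensity of 38 tested complex I genes between HS and TN (left) and between LW and Creole (right), with the 95% interval of the limma fit and colours for the role of the subunit. Filled points pass an adjusted p of 0.05, which on the left are 7 genes, all of them lower in HS.

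Among the nuclear core subunits, the pair at the site where NADH is oxidised fell in HS. NDUFV2 levels in TN were 13.46, 13.54 and 13.40 in Creole, 13.45, 13.33, 13.58 and 13.20 in F1, and 13.17, 13.42, 13.16 and 13.23 in LW. In HS they were 13.32, 13.31, 13.18, 13.11 and 12.76 in Creole, 13.27, 13.12, 12.93, 13.39 and 13.23 in F1, and 12.91, 12.87, 12.69, 12.81 and 12.92 in LW. TN and HS pigs did not overlap in Creole or in LW, but did in F1, and 14 of 15 HS pigs lay below the TN mean of their own breed. NDUFV2 was 0.805-fold of TN (log2 difference -0.31, SE 0.06, adjusted p = 0.00217).

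NDUFV1, the partner of NDUFV2 in the NADH-oxidising tip, stood in TN at 10.23, 10.36 and 10.28 in Creole, at 10.41, 10.43, 10.30 and 10.19 in F1, and at 9.50, 10.35, 9.72 and 9.80 in LW. HS levels were 10.09, 10.24, 9.79, 9.95 and 9.45 in Creole, 10.08, 9.86, 9.71, 10.18 and 9.91 in F1, and 9.80, 9.67, 9.25, 9.58 and 9.63 in LW. All 15 HS pigs were below the TN mean of their breed. The temperatures did not overlap in F1 but did in Creole and in LW, where a single TN pig at 10.35 stood above the others. The log2 difference was -0.34 (SE 0.09, adjusted p = 0.0133), or 0.790-fold.

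The core subunits NDUFS3, NDUFS1 and NDUFS8 did not pass the threshold. NDUFS3, of the ubiquinone-reducing part, ran from 12.60 to 13.06 in TN and from 12.24 to 13.14 in HS and differed by -0.20 (95% interval -0.38 to -0.03, adjusted p = 0.122). NDUFS1, the large iron-sulfur subunit, ran from 9.02 to 9.52 and from 8.96 to 9.55 and differed by -0.08 (-0.19 to 0.03). NDUFS8, which carries iron-sulfur clusters near the ubiquinone site, ran from 14.20 to 14.68 and from 14.05 to 14.80 and differed by -0.05 (-0.21 to 0.12). The TN and HS ranges over all pigs overlapped for these 3 genes, whereas within Creole and within LW those of NDUFS3 did not.

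**Figure D2:**
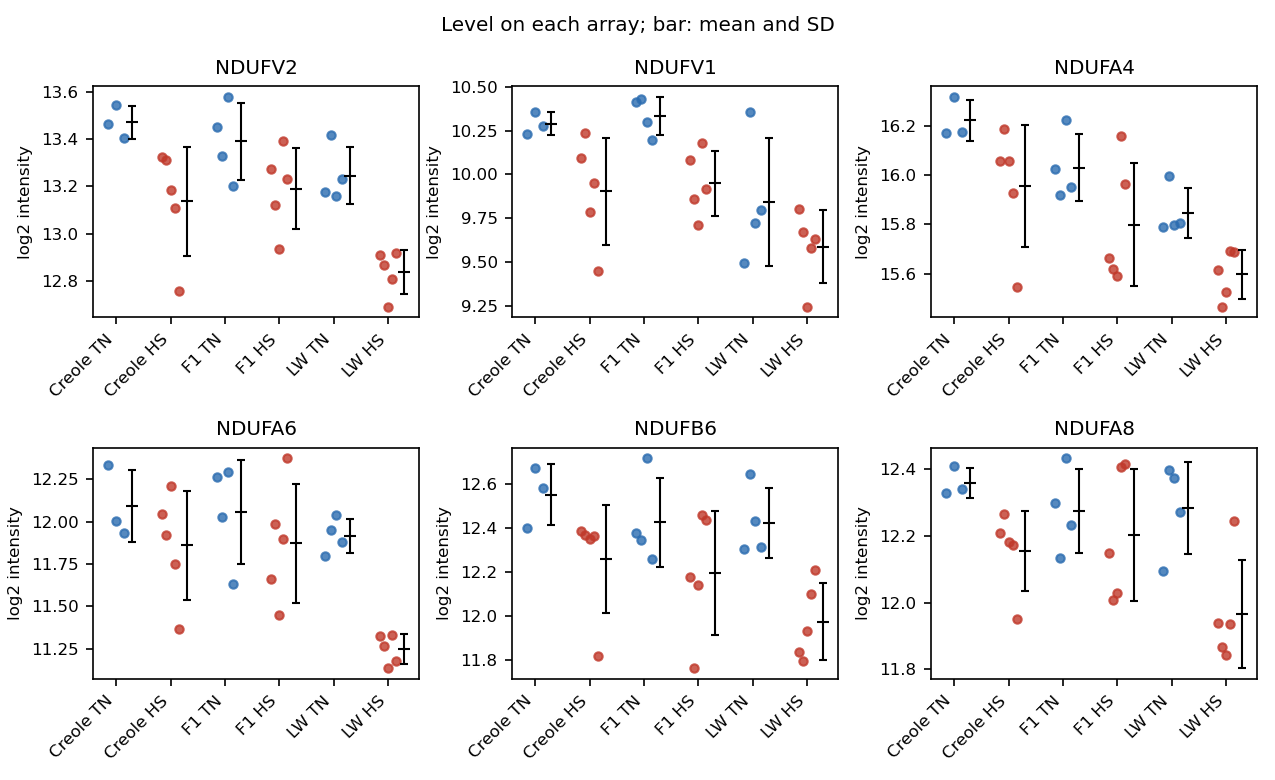
Log2 intensity of 6 complex I genes that fell in HS, on each of the 26 arrays (blue TN, red HS; bars give the mean and SD of each group). In LW, the 5 HS pigs of NDUFA6 lie between 11.13 and 11.33, below all 4 TN pigs.

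Among the accessory subunits of the matrix arm, 1 of 8 fell, a share like the 12.5% called over all named genes, and the median was -0.12. That gene was NDUFA6, which binds the acyl carrier protein at the matrix arm. Its levels in LW were 11.80, 11.95, 12.04 and 11.88 in TN and 11.32, 11.26, 11.13, 11.33 and 11.18 in HS, without overlap. In Creole they were 12.34, 12.01 and 11.94 in TN and 12.05, 11.92, 12.21, 11.75 and 11.37 in HS, and in F1 12.27, 12.03, 12.29 and 11.63 against 11.66, 11.99, 11.45, 11.90 and 12.38, with overlap in both. Over the breeds, NDUFA6 fell by 0.37 on the log2 scale (SE 0.10, adjusted p = 0.0223). NDUFS4, a matrix-arm subunit joined late in assembly, ran from 13.32 to 13.72 in TN and from 13.18 to 13.69 in HS and differed by -0.12 (adjusted p = 0.135), and NDUFV3, a small accessory subunit beside NDUFV1 and NDUFV2, by 0.12 (adjusted p = 0.475).

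The acyl carrier protein itself, NDUFAB1, which also serves mitochondrial fatty acid synthesis, ran from 13.64 through 13.92 to 14.15 in TN and from 13.07 through 13.63 to 14.05 in HS. It fell by 0.32 (SE 0.10, adjusted p = 0.0408), with 12 of 15 HS pigs below the TN mean of their breed. Creole HS replicate 5 was lowest at 13.07. The temperatures did not overlap in LW, but did in Creole and F1. The call was lost without any 1 of 14 arrays (F1 HS replicates 1, 2 and 3, F1 TN replicates 1 and 3, LW HS replicates 1, 2, 3 and 4, LW TN replicates 2, 3 and 4, and Creole TN replicates 2 and 3), with an adjusted p of up to 0.0836 in the limma fit, and it held in 10 of 15 other alternatives.

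In the membrane arm, 1 of 9 proximal and 1 of 10 distal accessory subunits fell, again near the 12.5% called over all named genes. NDUFA8, a proximal subunit on the intermembrane side, ran from 12.09 through 12.33 to 12.43 in TN and from 11.84 through 12.15 to 12.41 in HS, a log2 difference of -0.20 (SE 0.06, adjusted p = 0.0323). NDUFB6, of the distal arm, ran from 12.26 through 12.40 to 12.72 in TN and from 11.76 through 12.18 to 12.46 in HS, a difference of -0.33 (SE 0.08, adjusted p = 0.0103). For both genes 13 of 15 HS pigs were below the TN mean of their breed, and the ranges over all pigs overlapped. By breed, NDUFB6 did not overlap in Creole or LW, and NDUFA8 did not overlap in Creole. The NDUFA8 call was lost without any 1 of 9 arrays (F1 HS replicates 2 and 3, F1 TN replicate 3, LW HS replicates 2, 3 and 4, LW TN replicates 2 and 3, and Creole TN replicate 2), with an adjusted p of up to 0.0670 in the limma fit.

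The median was -0.13 over the proximal and -0.09 over the distal genes. NDUFC1, a small proximal subunit that ran from 11.33 to 11.91 in TN and from 10.95 to 11.60 in HS, differed by -0.21 (adjusted p = 0.0523), NDUFA1, a small membrane subunit needed for assembly, by -0.19 (adjusted p = 0.0946), and the distal subunits NDUFB2 by -0.15 (adjusted p = 0.246) and NDUFB3, at 11.71 to 12.28 in TN and 11.39 to 12.55 in HS, by -0.11 (adjusted p = 0.518).

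None of the 3 tested assembly factors passed the threshold. NDUFAF3 and NDUFAF4, which act together on the ubiquinone-reducing part, differed by -0.12 (adjusted p = 0.0731) and -0.22 (adjusted p = 0.21), and NDUFAF6 differed by -0.27 (adjusted p = 0.106). All 3 estimates were lower in HS.

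NDUFA4, named after complex I but now assigned to cytochrome c oxidase, ran from 15.79 through 16.00 to 16.32 in TN and from 15.47 through 15.69 to 16.19 in HS. It fell by 0.25 (SE 0.07, adjusted p = 0.015), with 14 of 15 HS pigs below the TN mean of their breed, and in LW the HS pigs (up to 15.69) did not overlap the TN pigs (from 15.79). Its paralogue NDUFA4L2, known as a hypoxia-responsive gene, did not pass the threshold (-0.05, 95% interval -0.25 to 0.14, adjusted p = 0.758).

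The probes of a gene mostly moved together. Of 23 genes with 2 or more tested probes, 18 had a lower estimate in HS with every probe and 5 had probes of both signs. All 6 NDUFV2 probes fell, by 0.31 to 0.44, and so did both NDUFA6 and both NDUFA8 probes. For NDUFA4, 7 of 8 probes fell, by 0.23 to 0.42, and probe b differed by -0.03.

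For 5 genes a dimmer probe passed the threshold while the brightest did not. These were NDUFB9, NDUFA10, NDUFB5, NDUFC1 and NDUFA7, chosen for mention after their values were seen. The brightest NDUFB9 probe differed by -0.01 (adjusted p = 0.972). Another, well above background on all arrays at a mean level of 14.76, fell by 0.24 (adjusted p = 0.00171), with 15 of 15 HS pigs below the TN mean of their breed. NDUFB5 probe b differed by 0.20 (adjusted p = 0.0806) and its probe a fell by 0.26 (adjusted p = 0.0171). NDUFA10, a proximal membrane-arm subunit, likewise differed by 0.11 with a description-named probe, and fell by 0.26 with the probe named by its symbol (adjusted p = 0.0147).

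The probes can also be counted by how they were named, beside the 12.2% of all tested probes called. Of 67 tested probes named by symbol, 62 had a lower estimate and 21 fell, and of 11 named by accession or synonym all had a lower estimate and 7 fell. Of the 8 named by description, 4 had a lower estimate and 1 fell. With description-named probes left out, an alternative added after the data were seen, 10 of 38 genes fell and 0 rose, against 12.5% of all named genes called, and NDUFB5 turned from 0.20 to -0.26. By brightness, of 66 probes with a mean level of at least 10, 62 had a lower estimate and 26 fell, and of 20 dimmer probes 15 had a lower estimate and 3 fell.

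**Figure D3:**
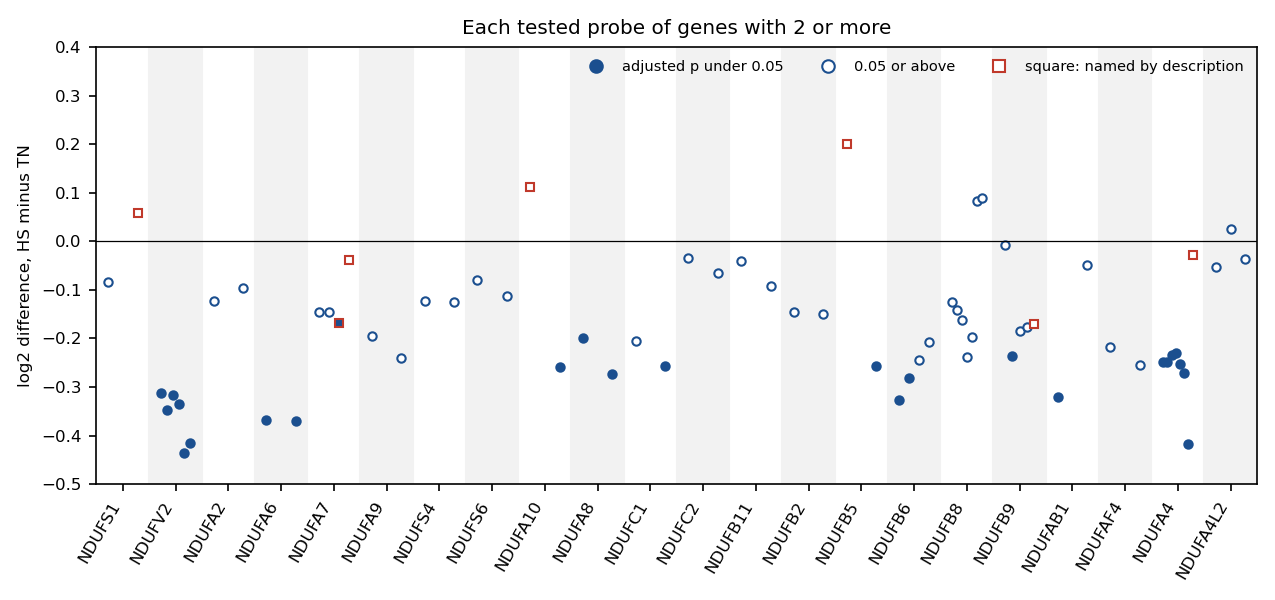
Difference in log2 intensity between HS and TN for every tested probe of 22 complex I genes with 2 or more, ordered within a gene from the brightest probe to the dimmest. All 6 NDUFV2 probes lie between -0.44 and -0.31, and the description-named NDUFB5 probe at 0.20 stands apart from the other probe of that gene.

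Some red blood cell markers differed by temperature as well. Over the 5 of 8 listed markers that were measured, 2 fell and 0 rose, with HBB, the beta chain of haemoglobin, at -0.85 (adjusted p = 0.011) and EPB42, a red cell membrane protein, at -0.38 (adjusted p = 0.0294), while AHSP, a chaperone of haemoglobin (-0.47, adjusted p = 0.0521), the anion exchanger SLC4A1 (0.06) and ALAS2, an enzyme of haem synthesis (0.04), did not pass the threshold. Their mean centred level ran from -0.03 through a median of 0.15 to 0.57 in TN and from -0.49 through -0.15 to 0.37 in HS, and all 5 were well above background on at least 24 arrays. With this score as a covariate, 0 of the 39 complex I genes passed the threshold, 4 had an unadjusted p under 0.05, 28 had a lower estimate, and the median was -0.06. Over all named genes 126 (1.24%) then passed. The NDUFV2 difference became -0.24 (adjusted p = 0.12) that of NDUFAB1 -0.09 (adjusted p = 0.747) and that of NDUFV1 -0.31 (adjusted p = 0.166), the last close to its -0.34 without the covariate. The part of red blood cell RNA in the complex I result was not tested otherwise.

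Muscle markers differed less clearly by temperature. All 11 had a higher estimate in HS, with a median of 0.57, and none passed the threshold. With the muscle score as a covariate, 10 complex I genes fell and 1 rose, against 16.6% of all named genes called. Without the 2 HS and the 2 TN arrays highest in muscle markers, an alternative added after the data were seen, 5 fell, and 9.79% of all named genes were called. Of the 6 fibroblast markers 4 rose, and their mean centred level ran from -0.87 to 0.35 in TN and from -0.23 to 0.65 in HS, while adipocyte markers held 1 rise and no fall among 8. Of 5 endothelial markers, all with a lower estimate, CDH5, a junction protein, fell by 0.23 (adjusted p = 0.0254), and the mean centred level of the list ran from -0.13 to 0.23 in TN and from -0.43 to 0.21 in HS. Of 3 measured brown adipocyte markers, CIDEA, a lipid droplet protein, fell by 0.43 (adjusted p = 0.00023), with 15 of 15 HS pigs below the TN mean of their breed. DIO2 differed by 0.25 with 13 of 15 HS pigs above the TN mean of their breed (adjusted p = 0.0750), and the list ran from -0.08 to 0.19 in TN and from -0.38 to 0.15 in HS. None of 7 macrophage markers passed the threshold. The single keratinocyte marker measured, KRT5, varied widely and differed by 1.54 (SE 1.01, adjusted p = 0.346). The part of these cell types in the complex I result was not tested otherwise.

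**Figure D4:**
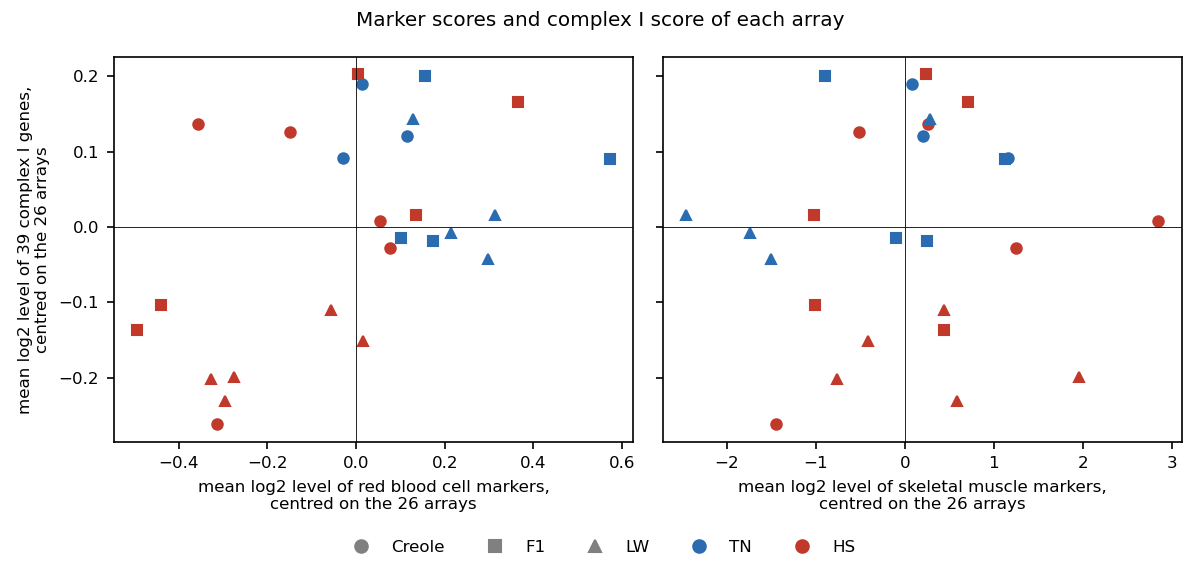
Mean centred log2 level of the 39 complex I genes on each array against that of 5 red blood cell markers (left) and 11 skeletal muscle markers (right), with colours for temperature and shapes for breed. HS arrays reach down to -0.49 on the red blood cell axis, where TN arrays stop at -0.03, and to -0.26 on the complex I axis.

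Every slide held both temperatures, and within the 5 slides the median complex I difference was -0.10, -0.09, -0.31, -0.06 and -0.07, against -0.02 to 0.00 over all named genes. From 26 to 35 of the 39 genes were lower in HS within a slide. NDUFV2 was lower in HS on each slide, by 0.21, 0.37, 0.62, 0.19 and 0.20, and so were NDUFA4 and NDUFV1. These values are differences of means without a breed term, and the breeds are unevenly spread over the slides, so that on slide 5 both TN pigs were LW and both HS pigs were Creole or F1. With breed in the model and slide as a fixed block 9 genes fell and 1, NDUFB5 through probe b, rose, against 13.6% of all named genes called.

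Other genes of the pathway were read from lists, beside 12.5% of all named genes called, 7.65% of them lower and 4.87% higher. The subunits encoded in mitochondrial DNA fell in 6 of 7 cases, with a median of -0.28. ND6, the only subunit encoded on the light strand, fell by 0.53 (SE 0.10, adjusted p = 0.00137), and ND4L did not pass (-0.17, adjusted p = 0.123). ACAD9, an assembly factor outside the NDUF series, fell by 0.32 (adjusted p = 0.000181), the only one of 6 measured to pass. For ACAD9, 15 of 15 HS pigs lay below the TN mean of their breed.

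Of the regulators of mitochondrial biogenesis, 2 of 8 fell. They were TFAM, the packaging factor of mitochondrial DNA, at -0.13 (adjusted p = 0.0271), and GABPA, a transcription factor for nuclear respiratory genes, at -0.20 (adjusted p = 0.0241). PPARGC1A, the coactivator of the programme, differed by -0.13 (adjusted p = 0.327). Falls and no rises were counted in complexes II to V too, 2 of 3 in complex II, 3 of 8 in complex III, 1 of 9 in complex IV and 7 of 16 in complex V, with a median of -0.18 over all 36 genes. Of these, the 1 of 9 in complex IV was near the 12.5% called over all named genes. Complex I at 8 of 39 thus stood beside 13 of 36, and no test compared the complexes. The 8 include NDUFA4, now assigned to cytochrome c oxidase, which is complex IV. The 39 also hold NDUFA4L2 and 3 assembly factors.

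The temperature difference was then read within each breed. In Creole, 0 of 39 genes passed the threshold with limma, 5 had an unadjusted p under 0.05, 35 had a lower estimate and the median was -0.14. In F1, 0 passed, 4 had an unadjusted p under 0.05, 25 had a lower estimate and the median was -0.04. In LW, 1 fell, 14 had an unadjusted p under 0.05, 34 had a lower estimate and the median was -0.19. Over all named genes, 0.079%, 0.395% and 1.43% passed in Creole, F1 and LW. The LW gene was NDUFA6, at -0.67 (adjusted p = 0.0422), and the count within LW was 0 without any 1 of the 4 LW TN pigs, without LW HS replicate 1, 2, 3 or 4, or without Creole HS replicate 4, and 3 without LW HS replicate 5, Creole HS replicate 3 or Creole HS replicate 5.

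The marker scores also differed within LW. The red blood cell score ran from 0.13 to 0.31 in LW TN and from -0.33 to 0.01 in LW HS, without overlap, and the mean muscle score was -1.35 and 0.36. With the red blood cell score as a covariate 0 genes passed within LW, and with the muscle score 6 did. The share of all named genes called within LW with these covariates is not given here, so the 6 cannot be set against it.

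By probe, 9 of 86 fell within LW, against 1.5% of all tested probes called and 1.1% called lower. These were 5 of the 6 NDUFV2 probes, both NDUFA6 probes, the dimmer NDUFC1 probe and 1 NDUFA4 probe, the last by 0.80 (adjusted p = 0.0209). With its brightest probe, NDUFV2 differed by -0.33 in Creole pigs, -0.20 in F1 pigs and -0.41 in LW pigs.

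**Figure D5:**
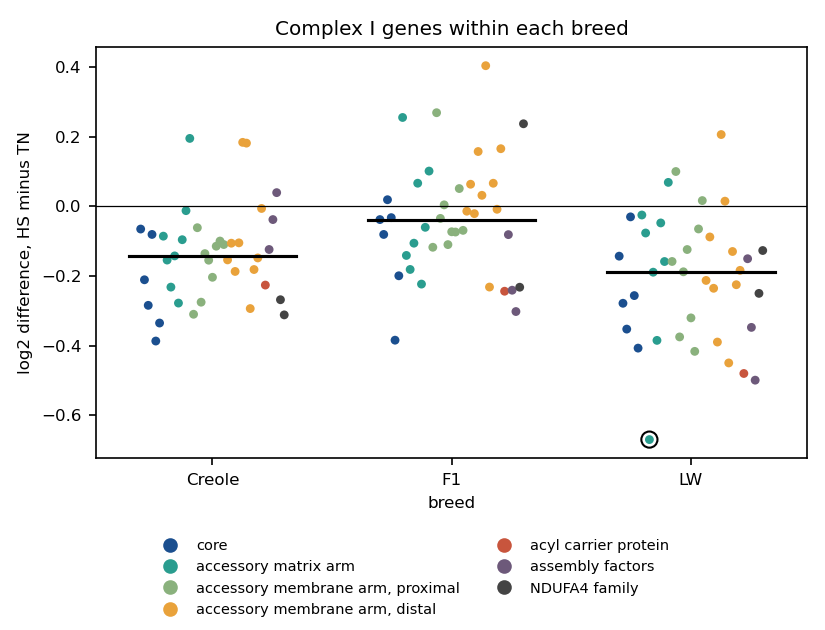
Difference in log2 intensity between HS and TN for the 39 complex I genes within Creole, F1 and LW pigs, with the median as a bar (-0.14, -0.04 and -0.19) and a ring around NDUFA6 in LW, the gene that passed the threshold. No gene passed the threshold in the test of whether the temperature difference varied between breeds.

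Whether the temperature difference varied between breeds was tested as an interaction, in which 0 of 39 complex I genes passed with limma and 1 had an unadjusted p under 0.05, and 0% of all named genes passed. The smallest p was that of NDUFA4L2 (unadjusted p = 0.045, adjusted p = 0.897). Its levels were 12.01, 12.17 and 11.99 in Creole TN and 11.99, 11.78, 11.84, 11.82 and 11.29 in Creole HS. In F1 they were 11.94, 11.53, 12.11 and 11.57 in TN and 12.15, 11.92, 11.93, 12.08 and 12.06 in HS. Every Creole HS pig was thus below the Creole TN mean and every F1 HS pig above the F1 TN mean, with differences of -0.31 and 0.24, while LW, at 12.08, 12.04, 11.60 and 11.71 in TN and 11.64, 12.03, 11.89, 11.66 and 11.42 in HS, differed by -0.13. The next smallest were NDUFC1 (unadjusted p = 0.077; -0.11, -0.07 and -0.42 in Creole, F1 and LW) and NDUFB3 (unadjusted p = 0.0773; -0.10, 0.16 and -0.39).

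Between the parental breeds, some complex I genes were lower in LW than in Creole. With temperature in the model, 10 of 39 genes were lower in LW and 2 higher at the threshold, that is 30.8%, against 15.3% of all named genes (8.6% lower, 6.66% higher). With a skeletal muscle score as a covariate 4 were lower and 1 higher, against 9.71% of all named genes called. Without that covariate the median was -0.14 over the complex I genes and -0.01 over all named genes. Among the member probes, 26 of 86 were lower and 3 higher, compared with 14.3% of all tested probes called, 7.43% lower and 6.89% higher. Of the lower probes 6 were from NDUFA4 and 5 from NDUFV2, some of them overlapping in sequence. This comparison uses the same arrays as that of temperature.

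NDUFA4 ran from 15.54 through 16.11 to 16.32 in Creole, from 15.59 through 15.95 to 16.23 in F1 and from 15.47 through 15.69 to 16.00 in LW, and was lower in LW than in Creole by 0.36 (SE 0.08, adjusted p = 0.00464). NDUFS1 ran from 9.15 through 9.46 to 9.55 in Creole and from 8.96 through 9.12 to 9.38 in LW (-0.28, SE 0.07, adjusted p = 0.00679). NDUFB2 ran from 13.48 through 14.09 to 14.36 and from 13.39 through 13.66 to 13.90 (-0.37, SE 0.10, adjusted p = 0.0129). All these ranges overlapped between the breeds, with the LW median below the Creole median.

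NDUFA1 was lower in LW by 0.32 (SE 0.09, adjusted p = 0.0192), and its levels ran from 13.37 through 14.02 to 14.37 in Creole and from 13.49 through 13.64 to 13.94 in LW. NDUFV3 went the other way, from 11.55 through 11.83 to 12.25 in Creole and from 12.07 through 12.30 to 12.54 in LW, a difference of 0.42 (SE 0.12, adjusted p = 0.0213). The remaining genes that were lower in LW were the core subunits NDUFV1 and NDUFV2, the matrix-arm subunits NDUFA6 and NDUFA12, the distal subunit NDUFB11 and the assembly factor NDUFAF4, by 0.26 to 0.43.

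The second gene higher in LW was NDUFB5, and this depended on the probe. Its probe b, named by description, was higher by 0.29 (adjusted p = 0.0352), whereas probe a was lower by 0.36 (adjusted p = 0.00673). The call of probe b was lost without any 1 of 9 arrays (Creole HS replicates 1, 2 and 3, Creole TN replicates 1 and 2, LW HS replicate 2, and LW TN replicates 1, 3 and 4), with an adjusted p of up to 0.0740 in the limma fit. NDUFA4 showed the same split, with probe b higher by 0.26 (adjusted p = 0.0155) and 6 of the other 7 probes lower by 0.34 to 0.38 past the threshold. Without description-named probes, 12 of 38 genes were lower in LW and 1, NDUFV3, was higher, against 15.3% of all named genes called.

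Muscle markers were beside these genes here as well. Their median difference between LW and Creole was -0.92, with none of 11 past the threshold, and with the muscle score as a covariate 4 complex I genes were lower in LW and 1 higher, against 9.71% of all named genes called. Without the 2 HS and 2 TN arrays highest in muscle markers the counts were again 4 and 1, against 8.61%. Without Creole HS replicate 1 a total of 6 genes passed, and the share of all named genes is not given for that fit. With the red blood cell score as a covariate 13 were lower and 2 higher, against 17.7% of all named genes called. Of the fibroblast markers 3 of 6 were higher in LW, with a list median of 0.37, and COL1A2, a collagen chain, differed by 0.53 (adjusted p = 0.0229). KDR, an endothelial receptor, was higher in LW by 0.87 (adjusted p = 0.00135). LEP, the adipokine leptin, differed by -1.23 (adjusted p = 0.0438), the only one of 8 adipocyte markers to pass, with a list median of -0.07. Among the brown adipocyte markers CIDEA differed by -0.31 (adjusted p = 0.0103), while PPARGC1A was higher in LW by 0.36 (adjusted p = 0.0201) and DIO2, an enzyme that activates thyroid hormone, differed by 0.30 (adjusted p = 0.0756). The part of muscle, fibroblast, endothelial and adipocyte RNA in the breed difference was not tested otherwise.

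Split by temperature, the LW minus Creole median was -0.13 in TN and -0.18 in HS. In TN, 0 of 39 genes passed with limma and 10 had an unadjusted p under 0.05, with 0.296% of all named genes past the threshold. In HS, 3 genes were lower in LW (NDUFA6 by 0.61, NDUFAF6 by 0.56 and NDUFS1 by 0.31), compared with 6.21% of all named genes called. TN held 3 Creole and 4 LW pigs, fewer than HS. The mean muscle score was 0.49 in Creole and -1.35 in LW at TN, and 0.48 and 0.36 at HS.

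F1 pigs lay above the mean of the parental breeds for 32 of 39 genes, with a median of 0.06, but 0 genes passed the threshold with limma, 2 had an unadjusted p under 0.05, and 0% of all named genes passed. The smallest p-values were those of NDUFV1 (0.23, SE 0.09, adjusted p = 0.458), NDUFV3 (0.23, SE 0.10, adjusted p = 0.529) and NDUFS4 (-0.11, SE 0.06, adjusted p = 0.592). Against LW alone, F1 was higher for NDUFV1 by 0.42 (adjusted p = 0.0279) and NDUFV2 by 0.26 (adjusted p = 0.0464), 2 of 39 genes against 4.26% of all named genes. Against Creole alone 0 of 39 passed with limma and 4 had an unadjusted p under 0.05, against 0.207% of all named genes.

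The signal behind these values differed between probes, and levels of different probes cannot be ranked as amounts of RNA. NDUFA4 had the brightest representative probe of the members, with a mean level of 15.88, and NDUFB4 the dimmest, at 5.56. NDUFB4 was well above background on 11 arrays, ran from 5.32 to 5.83 in TN and from 5.25 to 5.97 in HS, and differed by 0.14 (adjusted p = 0.188).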

How the data were processed

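The authors hybridised RNA to 1-colour Agilent arrays and deposited the scanner intensity of every spot, extracted with Agilent Feature Extraction 10.10.1.1, and a table of processed log2 values. Here the log2 median intensity was quantile-normalised without background correction (the study's methods name quantile normalisation and a log2 transformation), keeping probes that were well above background on 8 arrays or more. Differences were fitted with limma 3.58.1 in R 4.3.3 with breed and temperature as terms, and within-breed differences and the interaction with the 6 group means, with Benjamini-Hochberg adjustment over all 44703 probes and a threshold of 0.05. Pen, slaughter batch and parents, random terms of the study, are not in the labels used here.

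Probes were named by accession (9604), array symbol (14559) or synonym (198), and members also by description. For a gene, the brightest tested probe was used. Loci described only as like or similar to a subunit (2) were left out. Members and lists were chosen with earlier results of these data known. For 1 member, which is in the counts, values are not reported here. Genes with full values were the 8 with the smallest adjusted p by temperature, the core subunits, NDUFA4 and NDUFA4L2, the 5 with the smallest adjusted p between LW and Creole, the 3 with the smallest p for F1 and for the interaction, the brightest and dimmest, and those with probes past the threshold in opposite directions.

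On simulated intensities for 44577 probes, the HS minus TN fit recovered 32.4% of changes of 0.25, 78.8% of 0.5 and 98.5% of 1 on the log2 scale, with 5 unchanged probes called. Only 68, 66 and 66 probes were changed by these amounts, with noise drawn independently for each probe and array. In the data 5445 probes were called and the adjustment differs accordingly, so these rates are not those of the reported fit. No spot was saturated (0), and at most 16 spots per array were non-uniform. The number of arrays limits the precision.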

Additional observations from a re-analysis of the deposited data

Results flagged for a closer look

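Single pigs stood apart from the rest of their group for 7 complex I genes, judged by the gap to the nearest pig as a share of the group's range. There were 8 such cases in 105 tests, where chance gives about 1 in 20. Creole HS replicate 5 was low for 4 genes. For NDUFB6 its level was 11.82 against 12.35 to 12.39 in the others (share 0.933), for NDUFA1 13.37 against 13.89 to 14.08 (0.739), for NDUFS3 12.25 against 12.75 to 12.93 (0.734) and for NDUFAB1 13.07 against 13.77 to 14.04 (0.720). This array also had the lowest mean centred complex I level, -0.26, and without it 8 genes passed the threshold between HS and TN and 16 between LW and Creole. The shares of all named genes called without this array are not given here.

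The other cases were high. LW TN replicate 2 had 16.00 for NDUFA4 against 15.79 to 15.80 (0.926), F1 TN replicate 3 had 14.19 for NDUFA1 against 13.91 to 13.94 (0.878), LW HS replicate 5 had 12.24 for NDUFA8 against 11.84 to 11.94 (0.760), and LW HS replicate 4 had 14.50 for NDUFS8 against 14.21 to 14.28 (0.759).

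The temperature difference of NDUFA4L2 varied between breeds at an unadjusted interaction p of 0.0450, with every Creole HS pig below and every F1 HS pig above the TN mean of its breed. After limma's adjustment over all probes the p was 0.897.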

How the results depend on the processing

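The 8 genes and 29 probes that fell in HS became 16 and 48 past the threshold with 75th percentile scaling (14.7% of all named genes called). They became 3 and 13 without the breed term (7.93%), and 0 and 2 with the red blood cell score as a covariate (1.24%). Without the 4 arrays highest in muscle markers, chosen after the data were seen, 5 genes passed it (9.79%). The 12 genes between LW and Creole became 5 with the muscle score as a covariate (9.71%) and 5 without those 4 arrays (8.61%). The single gene within LW became 5 with 75th percentile scaling, 0 with normexp correction, 2 with the authors' processed values, 0 without the filter on dim probes, 3 with the filter on all 26 arrays, 0 with slide as a fixed block, 2 with slide as a random block, 3 with array weights, 3 with the mean of all probes, 0 with the red blood cell score, 6 with the muscle score and 0 without those 4 arrays. In the main fit 1.43% of all named genes passed within LW. The share within LW under the other settings is not given here, so these counts cannot be set against all genes. The cause was not tested.

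NDUFB5 reversed to -0.028 (HS minus TN) and -0.036 (LW minus Creole) with the mean of its probes, and to -0.26 and -0.36 without description-named probes, since another probe then stands for the gene. With the red blood cell score, NDUFB2 (0.0018), NDUFB3 (0.074) and NDUFS8 (0.069) reversed in HS minus TN, and the cause was not tested.

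Leaving out each array in turn gave 6 to 11 genes, 23 to 37 probes and a median of -0.14 to -0.10 for HS minus TN, 6 to 16 genes for LW minus Creole, 0 to 3 within LW, and 0 throughout for F1 against its parents, the interaction, Creole and F1. The 6 for LW minus Creole came without Creole HS replicate 1. For fits without 1 array the share of all named genes called is not given here. No paired analysis was possible because the labels do not give the litter of each pig. Small differences are limited by 3 to 5 pigs per group and, for dim probes, by signal near background.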
